A study of Arabidopsis thaliana with 39 samples.

Results

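OZ1 was the segment of the Arabidopsis thaliana root tip that the study named first within the oscillation zone, and 20 of the 39 arrays of the series were hybridised with its RNA. The arrays were chosen by their titles, which begin with the OZ1 name. All 20 came from DR5-GUS seedlings of the Columbia ecotype, an auxin-reporter line, collected 5 days after germination on standard media. Per the series text, roots were dissected individually, so that the spread between arrays includes differences between roots. The labels disagree on the position of the segment, since the descriptions place OZ1 lower in the zone and the tissue label places it in the upper part of the root, and it is called OZ1 throughout. The submitters listed the arrays in an order that they used to look for periodic expression, here positions 1 to 20. All 20 arrays form a single group, so that levels and spread are described and the tests concern scan day, listed position and array quality.

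The oscillation zone lies where root cells leave the meristem and begin to elongate. In this zone the auxin reporter DR5 pulses, and each pulse is followed by a prebranch site, a stretch of pericycle cells competent to form a lateral root. Cells here have high metabolic and wall-building activity, and the outer layers have not yet formed root hairs.

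Signals were MAS5 intensities of an Affymetrix ATH1 array, on which each probe set reports 1 or more transcripts. Each array had been scaled to a trimmed mean of 249.8 to 249.9. Without the 64 control probe sets, 22746 probe sets were used, of which 13513 were assigned to 1 gene, 503 to several and 8730 to no gene in the annotation used here. Values are log2 signals unless stated. Probe sets with a mean above the 40th percentile, 5.62 on the log2 scale or a signal of 49.3, are called above the filter (13647 probe sets, 7557 of 13356 genes), and those above 9.20 form the top 10% of means, with 1106 genes. Probe sets differ in affinity, so ranks are ranks of array signal, not of transcript copies. In RNA from a whole segment, fewer cells of a type and less RNA per cell cannot be told apart.

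The 20 arrays were not of equal quality. The 18 probe sets for hybridisation controls, bacterial and phage transcripts added to each hybridisation, held 0.836% to 10.5% of the summed signal, with a median of 2.38%. The share exceeded 5% on 6 arrays: OZ1-10, OZ1-31, OZ1-6, OZ1-15, OZ1-3 and OZ1-16. The median signal of an array lay between 54.1 and 151.5 and rose with the control share (Pearson r = 0.911, Spearman rho = 0.917, permutation p = 2e-05, the smallest that the permutations can give, adjusted p = 3e-05 over 3 relations, n = 20). It was 0.886 within scan day 2 and 0.947 within scan day 1, and 0.882 without OZ1-10 and OZ1-31. The median correlation of an array with the other 19 fell with the control share (r = -0.908, rho = -0.838, permutation p = 2e-05, adjusted p = 3e-05), also within scan day 2 (-0.962), within scan day 1 (-0.911) and without those 2 arrays (-0.877). That median correlation was 0.503 on OZ1-10, the lowest, and 0.824 on OZ1-33, the highest. Listed position was not related to median signal (r = 0.036, rho = 0.053, permutation p = 0.88 and 0.83), with r of -0.10 within scan day 2, 0.090 within scan day 1 and 0.023 without OZ1-1 and OZ1-20. The ratio of 3′ to 5′ probe sets was 12.1 to 389 for glyceraldehyde-3-phosphate dehydrogenase, 6.26 to 23.9 for ubiquitin and 7.94 to 120.2 for actin. No 2 arrays were identical, and the 190 pairs correlated at 0.380 to 0.908. In earlier results of these data, OZ1-2, OZ1-3, OZ1-6 and OZ1-10 lay nearer the other segment, and the main results that rest on them are also given without these 4. The 4 were thus picked by these same expression values. For genes that set them apart, extreme values on them and less spread without them are partly built in.

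**Figure D1:**
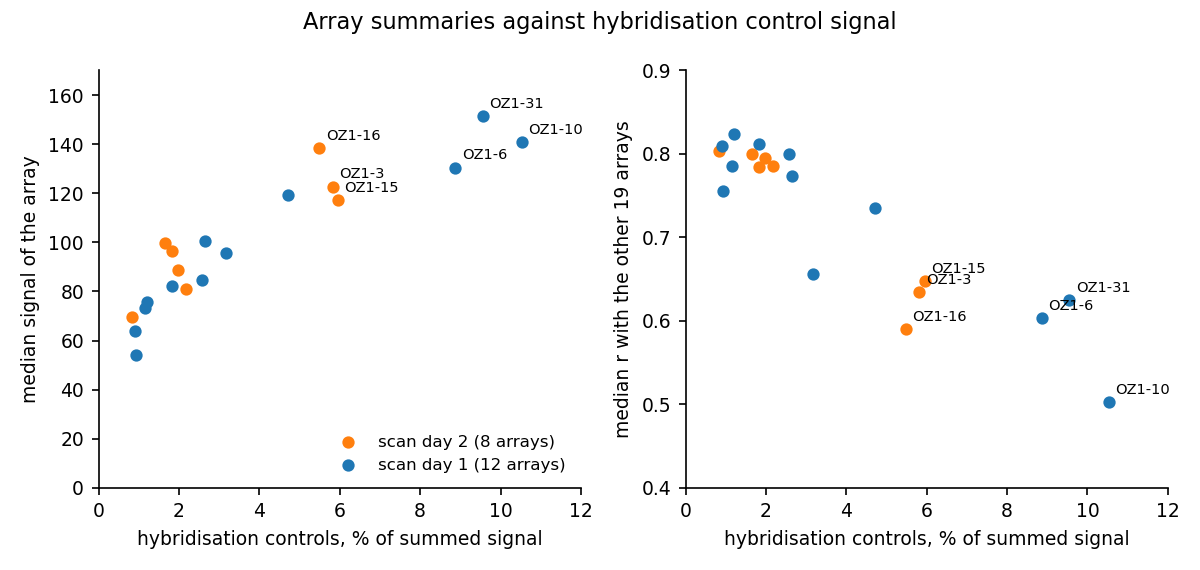
Each point is 1 OZ1 array; the x axis gives the share of summed signal held by the hybridisation controls (%), the y axis the median signal (left) or the median correlation with the other 19 arrays (right), with scan day 2 in orange and scan day 1 in blue. The 6 labelled arrays lie above 5% and have high median signals and low correlations.

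The most abundant transcripts in OZ1 that carry a gene symbol included those of central carbon metabolism, respiration and the cytoskeleton. The 100 probe sets of highest mean, with means of 13.47 to 15.23, held a median of 20.2% of an array's summed signal, with 10.4% on OZ1-10 and 27.0% on OZ1-32. The top 1000 held a median of 59.3%. Of those 100 probe sets, 35 were assigned to 1 gene, 17 to several and 48 to none, so that the gene account below covers only part of the abundant signal. Among the 20 genes of highest mean, 18 are known here by locus alone, and their roles are not given. AT3G60245 had the highest mean, with 12.47 on OZ1-10, a median of 15.54 and 16.51 on OZ1-16. AT1G78040 reached a similar mean of 14.77, but its arrays lay between 14.16 and 15.17. Of these 20 genes, 12 had their lowest value on OZ1-10, against 330 of the 1106 genes in the top 10% of means and 920 of the 7557 genes above the filter.

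Cytochrome c and the enzymes around the citric acid cycle were in the top 10%. CYTC-1, one of the cytochrome c genes of the respiratory chain, had 13.81 on OZ1-16, a median of 14.75 and 15.67 on OZ1-32. It was the highest gene with a symbol, and all 20 arrays read it above 13. The cytosolic isocitrate dehydrogenase cICDH had 13.04 at its lowest, a median of 14.04 and 14.47 at its highest. MAB1, the E1-beta subunit of mitochondrial pyruvate dehydrogenase, had 11.39 on OZ1-16, a median of 12.31 and 12.66 on OZ1-2. The arrays of these 2 genes were close together, and OZ1-16 stood lowest for MAB1. Of 13 measured nuclear genes of mitochondrial respiration and the citric acid cycle, 11 were above the filter and 10 in the top 10%, which holds 8.28% of all measured genes and 13.6% of those with a symbol. This family and the others named by symbol were put together after the symbols of abundant genes had been seen. They included FRO1, a subunit of complex I, at a mean of 11.81, CYTC-2 at 11.80, the isocitrate dehydrogenase subunit IDH-V at 11.34 and the iron-sulphur subunit of succinate dehydrogenase SDH2-2 at 11.17.

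Glycolysis and cytosolic acetyl-CoA supply were also high. Cytosolic triose phosphate isomerase, TPI, had 12.43 at its lowest, a median of 13.38 and 13.94 at its highest. GAPC2, a cytosolic glyceraldehyde-3-phosphate dehydrogenase, had 11.35, 12.46 and 13.37 in the same order. Both were read far above the filter on every array. Of 3 measured genes of the glycolysis list, 2 were in the top 10%. ATP-citrate lyase, which makes cytosolic acetyl-CoA, had 3 of its 4 measured subunit genes there, led by ACLA-1 (10.74 on OZ1-10, median 11.68, 12.50 on OZ1-4). PMM, phosphomannomutase of the mannose and ascorbate routes, had a mean of 12.28.

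Genes of the cytoskeleton, chromatin, protein turnover and signalling peptides followed. SPR1, a microtubule-associated protein needed for straight root growth, had 11.30 on OZ1-16, a median of 12.76 and 13.29 on OZ1-14. Of 7 measured tubulin genes, 5 were in the top 10%. HTB4, a histone H2B gene, had 10.51 on OZ1-6, a median of 12.40 and 14.34 on OZ1-16, and all 4 measured H2B genes were in the top 10%. UBC28, a ubiquitin-conjugating enzyme, had 9.60 on OZ1-16, a median of 12.63 and 13.42 on OZ1-2. For SPR1 and UBC28 alike the lowest value was on OZ1-16, where HTB4 was highest. RALF-like genes encode small secreted peptides that alter apoplastic pH and growth, and 5 of 11 measured members were in the top 10%, led by RALFL33 at a mean of 12.15. The tau-class glutathione transferases GSTU22 and GSTU25, which conjugate glutathione to small molecules, had means of 12.56 and 12.49. CRT1b, a calreticulin of the endoplasmic reticulum, had a mean of 11.98.

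MADS-box genes, best known for flower development, were read low in OZ1, with 6 of 40 measured members above the filter, against 7557 of 13356 of all genes, and none in the top 10%. Genes whose symbols begin with SWEET, picked by symbol for the sugar transporters but with SWEETIE among them, had 10 of 15 above the filter. The ATG8 autophagy genes had 6 of 7, with none in the top 10% in either list. Expansins and XTH enzymes, which loosen and remodel walls, had 18 of 27 above the filter and 1 in the top 10%.

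**Figure D2:**
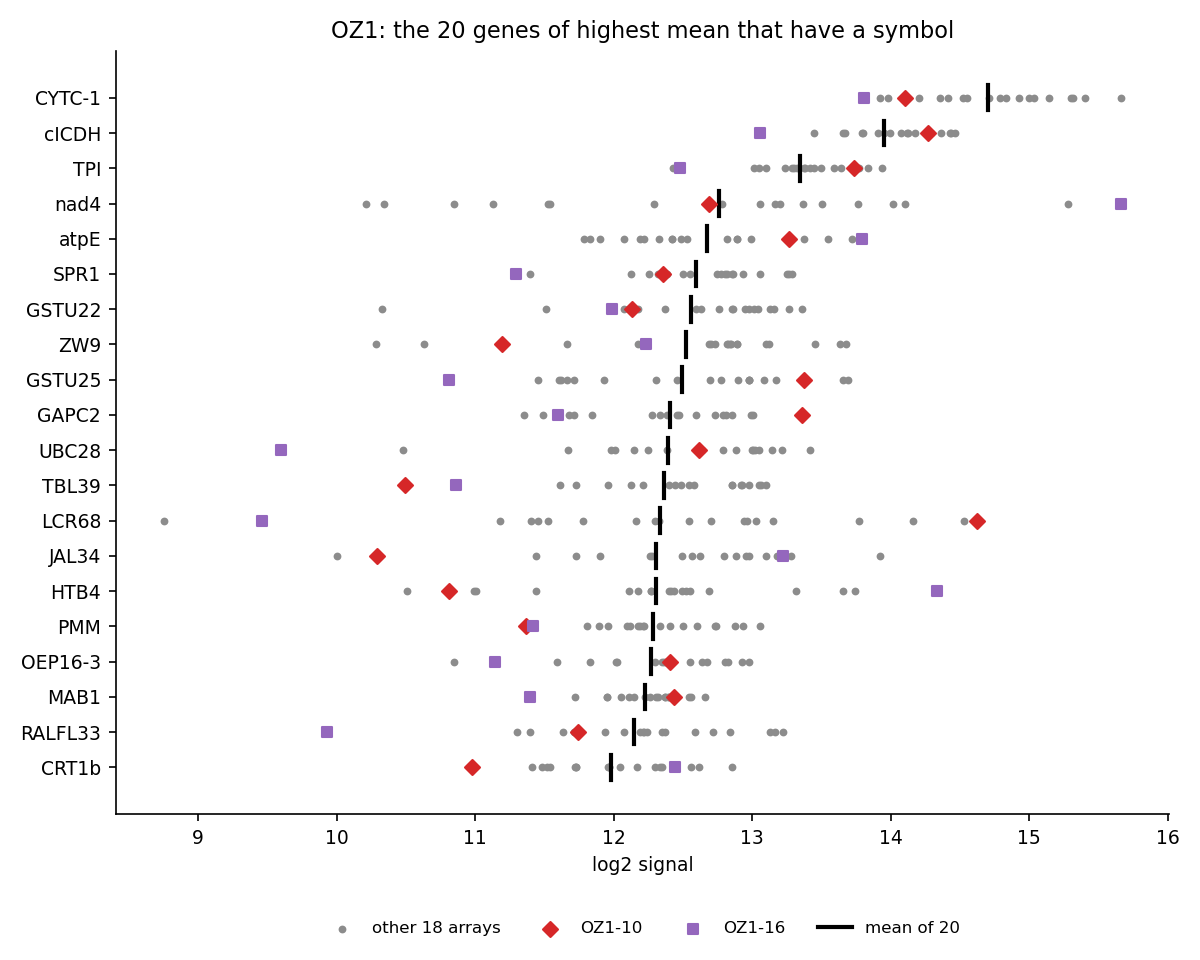
Log2 signal (x axis) of the 20 genes of highest mean that have a symbol, 1 point per OZ1 array, with OZ1-10 as red diamonds, OZ1-16 as purple squares, the other 18 arrays in grey and a bar at the mean. CYTC-1 is highest at a mean of 14.70 and CRT1b last at 11.98; nad4 and LCR68 spread widest, and OZ1-16 lies at or near the edge of many genes.

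Markers of the tissue could be checked only in part. Of the marker lists, those for non-hair epidermis, xylem, phloem, stele and pericycle and root cap had no measured member in the annotation used here. Both cortex genes were above the filter, at means of 9.46 and 5.95, with 1 in the top 10%. Of 8 endodermis genes only AT1G61590 was measured, at a mean of 5.81, near the filter. Of 5 quiescent centre and stem cell genes only BBM was measured, at 3.84, below the filter. Of 8 lateral root founder cell genes, 5 were measured and 4 were above the filter. LBD16, a transcription factor that acts in founder cells, had 1.14 on OZ1-20, 1.22 on OZ1-4, a median of 6.45 and 8.00 on OZ1-10. It was above the filter on 13 of 20 arrays, and OZ1-20 and OZ1-4 stood far below the rest. PUCHI, an early lateral root primordium factor, had 2.81 on OZ1-10, a median of 6.60 and 7.40 on OZ1-31. Of the shoot photosynthesis list, 3 genes were measured and none reached the top 10%. PSBY, a photosystem II protein, averaged 7.55, and RCA, Rubisco activase, averaged 6.14. The 3 measured genes of the mitosis list were above the filter and none was in the top 10%. With 8.28% of all measured genes in the top 10%, none of 3 is near the share over all genes.

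The spread between arrays depended strongly on the level. The SD of log2 signal over 20 arrays had a median of 1.59 in the lowest decile of means, 0.72 in the ninth and 0.74 in the highest. In folds, 1 SD was 3.01-fold in the lowest decile and 1.68-fold in the highest. The median SD of probe sets above the filter was 1.03 (jackknife SE 0.075), and over all probe sets it was 1.30. To compare genes at like levels, the SD of each was divided by the running median SD of the probe sets nearest in mean. This SD ratio is 1.00 at the median of all genes above the filter by its construction. The 1106 genes in the top 10% of means had SDs from 0.20 to 2.82. Of these, 52 had an SD ratio above 2 and 38 one below 0.5.

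The SD ratio of abundant genes was moderately repeated on separate arrays, with a lower rank correlation over all probe sets above the filter. Over the 1106 genes in the top 10%, the ratios computed from the 8 arrays of scan day 2 and from the 12 arrays of scan day 1 had a Spearman rho of 0.42 across genes, which are not independent and share their probes on both days. Of the 110 genes of highest ratio on either day, 26 were among the highest on both (23.6% of each). Of the 110 lowest, 29 were shared (26.4% of each). Unrelated rankings would share about 10% of each. The means of the 1106 genes correlated at 0.893 between the days. Over the 13647 probe sets above the filter, the means correlated at 0.932 and the ratios had a rho of 0.275. Of the 1364 highest ratios there on either day, 427 were shared (31.3%), and of the 1364 lowest, 261 (19.1%).

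**Figure D3:**
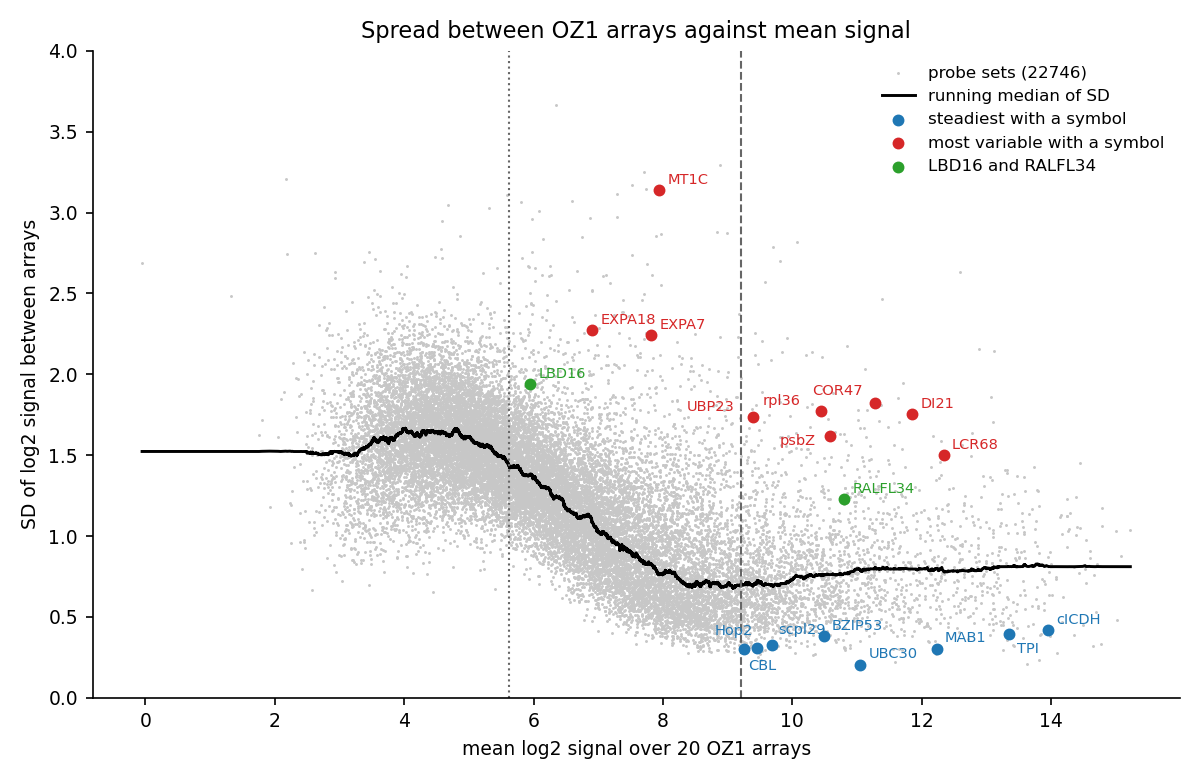
SD of log2 signal between the 20 arrays (y axis) against mean log2 signal (x axis) for 22746 probe sets, with the running median as a line, the filter at 5.62 dotted and the top 10% at 9.20 dashed; named genes are blue where steady, red where variable, and green for LBD16 and RALFL34. The median SD falls up to a mean near 9 and is nearly flat above it; steady genes such as UBC30 lie well below the line and MT1C, EXPA7 and COR47 well above it.

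The steadiest abundant genes included enzymes of metabolism and of protein turnover. AT5G39570 had 13.18 at its lowest, a median of 13.62 and 13.93 at its highest, an SD of 0.21 and an SD ratio of 0.26. UBC30, a ubiquitin-conjugating enzyme, had 10.47 on OZ1-31, a median of 11.07 and 11.41 on OZ1-3, with an SD of 0.20. No array stood apart for either gene. The SD ratio of UBC30 was 0.26, with 0.22 on scan day 2, 0.32 on scan day 1 and 0.32 without the 4 arrays. The 10 lowest ratios also held MAB1 at 0.38 and 7 other genes known by locus, from AT1G80950 at 0.33 to AT1G78040 at 0.41, which was 0.62 without the 4 arrays. Among genes with a symbol, MAB1 was followed by the heat-shock co-chaperone Hop2 and by CBL, cystathionine beta-lyase of methionine synthesis, each at 0.43. The serine carboxypeptidase-like gene scpl29 had 0.47, TPI 0.49, the transcription factor BZIP53 0.50, cICDH 0.52, and the monodehydroascorbate reductase ATMDAR2 and ACLA-1 both 0.53. The SDs of these 10 genes with a symbol, UBC30 included, had a median of 0.36.

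Genes used as references for quantitative PCR were mostly, but not all, steadier than others at their level. Of 23 listed, 8 were measured in this annotation, and 7 of these had an SD ratio under 1, with a median of 0.87. AT4G26410 was steadiest at 0.54 (9.28 on OZ1-23, median 10.24, 10.82 on OZ1-9). TUB6, a beta-tubulin, followed at 0.63, and GAPC2 had 0.78. AT2G28390 was least steady at 1.21, with 5.41 on OZ1-31, a median of 7.85 and 8.84 on OZ1-6. Without the 4 arrays the median ratio of the list was 1.04.

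The largest SD ratios among abundant genes fell into more than 1 pattern across arrays. AT5G17820 had 3.10 on OZ1-16, a median of 9.29 and 13.83 on OZ1-2, an SD of 2.78 and an SD ratio of 4.03. Its ratio was 3.76 on scan day 2, 2.86 on scan day 1 and 3.96 without the 4 arrays. High and low arrays of this gene were spread along the whole range. AT1G73620 had 3.34 on OZ1-3, a median of 11.37 and 12.35 on OZ1-33, with a ratio of 3.75 that became 1.55 without the 4 arrays. AT5G62340 had 3.28 on OZ1-10, a median of 10.72 and 12.69 on OZ1-20, with 3.85 and, without the 4, 1.96. AT5G51500 had 3.40 on OZ1-2, a median of 10.68 and 11.64 on OZ1-20, with 3.03 and 0.95. Each of these 3 genes was lowest on 1 of the 4 arrays. Without the 4, the ratio of AT5G51500 fell below 1, while AT1G73620 and AT5G62340 stayed above it. Of the 10 genes of highest ratio, 7 were lowest on OZ1-2, OZ1-3, OZ1-6 or OZ1-10, and the median of their SDs was 1.14 without these 4 arrays and 2.17 with them. Of the 52 genes with a ratio above 2, 28 were lowest on these 4 arrays, which is near the share over the whole top 10%, where 532 of 1106 genes were.

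Root hair wall genes were high on these 4 arrays and on OZ1-9. EXPA7, an expansin of root hair cells, had 4.12 on OZ1-14, a median of 7.33 and 11.76 on OZ1-10. It also had 11.64 on OZ1-2, 11.09 on OZ1-6, 10.40 on OZ1-9 and 10.38 on OZ1-3. EXPA18, its close relative in root hairs, had 4.02 on OZ1-17, a median of 5.89 and 11.34 on OZ1-10. The 5 highest arrays were the same 5 for both genes. Their SD ratios were 2.71 and 2.10, and 1.65 and 1.06 without the 4 arrays. SCN1, a regulator of where root hairs emerge, had a ratio of 0.76, and the other 5 of the 8 listed root hair genes were not measured in this annotation.

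COR47, MT1C and the RALF-like genes RALFL32 and RALFL34 had their most extreme values on OZ1-10. COR47, a cold- and drought-induced dehydrin, had 9.50 on OZ1-20, a median of 10.59 and 15.72 on OZ1-10, followed by 14.42 on OZ1-3, 13.80 on OZ1-2 and 13.78 on OZ1-6. Its 4 highest arrays were those 4, and its SD ratio was 2.29 with them and 1.31 without. MT1C, a metallothionein, had 2.40 on OZ1-35, a median of 8.01 and 14.26 on OZ1-10, the widest SD among the genes named here at 3.14. Its ratio was 4.11, and 2.74 without the 4 arrays. RALFL32 had 8.35 on OZ1-20, a median of 9.93 and 13.36 on OZ1-10, with an SD of 1.51 and, without the 4 arrays, 0.83. RALFL34, a peptide gene linked to lateral root initiation, ran the other way, with 7.65 on OZ1-10, a median of 11.34 and 12.23 on OZ1-17. Its 4 lowest values were on OZ1-10, OZ1-3 (8.66), OZ1-2 (8.98) and OZ1-6 (9.27). The SD ratio of RALFL34 was 1.60, and 0.81 without the 4 arrays. DI21, a drought-induced gene, had 6.76 on OZ1-3, a median of 12.52 and 13.77 on OZ1-35, with a ratio of 2.20 and, without the 4, 1.66. Of these arrays OZ1-10, OZ1-6 and OZ1-3 also had control shares of 10.5%, 8.88% and 5.82%, while OZ1-2 had 3.18%. After a line on the control level the SD ratio was 2.33 for COR47, 1.66 for RALFL34 and 2.55 for DI21, against 2.29, 1.60 and 2.20 before it. The running median was also taken from the SDs left after the line. Such a ratio can rise while a gene's own SD falls, so it does not show how much spread goes with the control level.

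**Figure D4:**
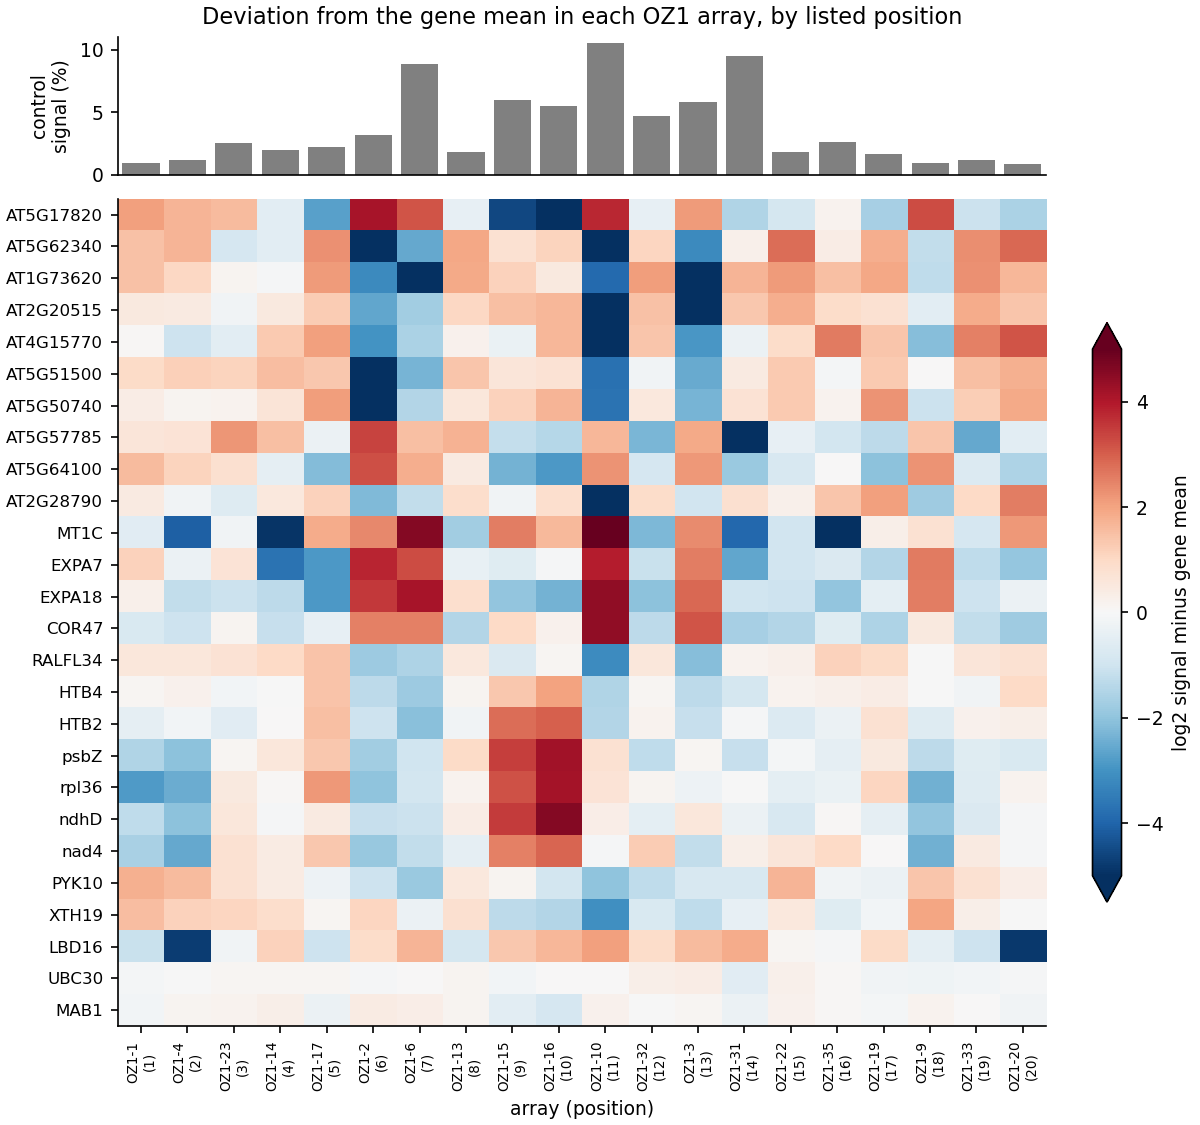
Log2 signal minus the gene mean (colour) for 26 named genes (rows) on the 20 OZ1 arrays in listed order (columns, position in brackets), with the hybridisation control share (%) above. AT5G62340 to AT5G50740 are low, and EXPA7, EXPA18 and COR47 high, on OZ1-2, OZ1-6, OZ1-10 and OZ1-3; psbZ, rpl36, ndhD and nad4 are high on OZ1-15 and OZ1-16; UBC30 and MAB1 are nearly even.

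Transcripts of the plastid genome varied together over the full set of arrays. All 69 measured plastid-encoded genes lay above the filter, 27 in the top 10%, and 67 of the 69 had an SD ratio above 1, against 3776 of the 7557 genes above the filter. The highest mean was that of atpE, a subunit of the plastid ATP synthase, with 11.78 at its lowest, a median of 12.51 and 13.79 at its highest. It was the steadiest member, with a ratio of 0.79. psbM, of photosystem II, had 8.67 on OZ1-4, a median of 11.37 and 15.94 on OZ1-16. psbZ, also of photosystem II, had 8.51 on OZ1-4, a median of 10.30 and 14.77 on OZ1-16, with 14.02 on OZ1-15. Both genes were far above their medians on OZ1-16. Of the 69 genes, 64 were highest on OZ1-16, against 964 of the 7557 genes above the filter. Their 2346 pairs correlated over arrays at a median of 0.78, against 0.0036 for pairs of all genes above the filter. An array on which most of a list is highest can raise such correlations, and the median is not given without OZ1-16 or by scan day. How far the shared variation rests on OZ1-16 and OZ1-15 was thus not tested. The list's median SD ratio was 1.77, with 2.25 on scan day 2, which holds OZ1-15 and OZ1-16, and 1.17 on scan day 1. It was 1.57 without OZ1-16 and 2.19 without the 4 arrays. The control share was 5.49% on OZ1-16 and 5.95% on OZ1-15, and the list's median ratio without the 6 arrays over 5% was 1.50.

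Some other genes, among them nad4, UBP23 and HTB2, were also highest on OZ1-16, which held for 964 of the 7557 genes above the filter. Of 14 genes above the filter that carry symbols of the mitochondrial genome, 13 had an SD ratio above 1. The complex I gene nad4 had 10.21 on OZ1-4, a median of 12.92 and 15.67 on OZ1-16. UBP23, a ubiquitin-specific protease, had 5.90 on OZ1-6, a median of 9.09 and 12.91 on OZ1-16, with the highest ratio among abundant genes with a symbol, 2.48. The 4 H2B genes were all lowest on OZ1-6, an array for which no share over all genes is given. HTB2 had 7.36 there, a median of 9.29 and 12.43 on OZ1-16, and HTB1 was highest on OZ1-17. Their SD ratios ran from 1.18 for HTB11 to 1.79 for HTB2, and the median was 1.32, or 1.12 without the 4 arrays.

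Gene families differed in their SD ratios, given here by medians beside the 1.00 of all genes and with no test. The median ratio was 1.47 for 8 RALF-like genes (1.30 without the 4 arrays), 1.45 for 18 expansin and XTH genes (1.25) and 1.30 for 6 ATG8 genes (1.28), where ATG8H reached 2.59 (3.48 on OZ1-31, median 8.96, 12.12 on OZ1-10). Defensin-like peptide genes had a median of 1.85 over all 20 arrays, with 3 of 5 genes above 1. On the same arrays the median was 0.72 for the 3 glycolysis genes and 0.76 for the 4 ATP-citrate lyase genes. For the 11 nuclear genes of respiration and the citric acid cycle it was 0.88. Medians without the 4 arrays are not given for these lists. Within the respiration list IDH-VI stood at 1.78, with 5.44 on OZ1-15, a median of 10.19 and 10.89 on OZ1-23. The wall-acetylation TBL genes had a median of 1.03 but ranged widely, with TBL38 at 3.02 (4.47 on OZ1-31, median 8.26, 12.24 on OZ1-3), where the SD was 2.10 and, without the 4 arrays, 1.37. SBT4.12, a subtilase, had 6.37 on OZ1-15, a median of 10.97 and 13.67 on OZ1-3, with a ratio of 2.10 and, without the 4 arrays, 2.17.

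**Figure D5:**
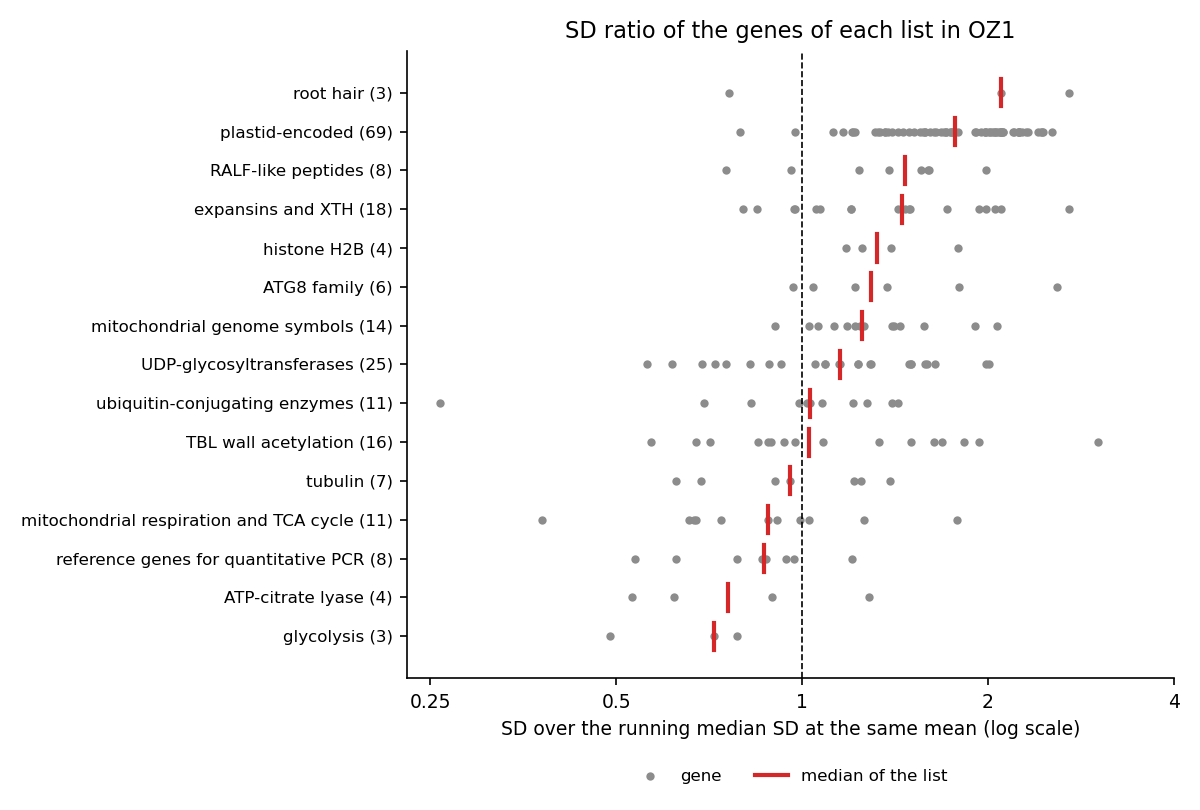
SD ratio on a log axis for the genes above the filter in 15 lists, 1 point per gene and a red bar at the list's median, with the number of genes in brackets and a dashed line at 1. Plastid-encoded genes have a median of 1.77 with 67 of 69 above the line, and the glycolysis genes a median of 0.72 with none above it.

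Scan day and listed position gave few calls on the values as deposited, and the counts depended on the setting. Between the 8 arrays of scan day 2 and the 12 of scan day 1, limma with Benjamini-Hochberg adjustment called 1 of 13647 probe sets (0.00733%), and 1655 had an unadjusted p under 0.05. The called probe set, assigned to several genes, was higher on scan day 2 by 1.79 (SE 0.29, adjusted p = 0.0224). Scan day called 58 without OZ1-3 and 81 with array weights. The sources used here do not say how the listed order was made, and if it was drawn from these expression values, tests over position are circular. Over the listed position, a spline with 3 df called 20 probe sets (0.147%), with 1563 at an unadjusted p under 0.05. Of the 20, 9 were assigned to 1 gene, 9 to none and 2 to several, and 15 had their fitted maximum at positions 9 to 12. Arrays OZ1-6, OZ1-15, OZ1-16, OZ1-10, OZ1-3 and OZ1-31, the 6 with over 5% control signal, stand at positions 7, 9, 10, 11, 13 and 14. When the fit also held the control level, limma called 0 (218 at an unadjusted p under 0.05), and without those 6 arrays it called 0 (671). Array weights raised the count to 1212.

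Over position, 9 of the 7557 genes above the filter were called, and none of the 4 lateral root founder cell genes there. With so few calls and so few listed genes, this says nothing about root branching. AT5G53100 had 0.44 on OZ1-1, a median of 6.31 and 8.48 on OZ1-10, with a fitted range of 6.76 (limma, adjusted p = 0.0196). Its mean of 5.70 lay just above the filter of 5.62, where spread is wide. AT2G06390 had 1.90 on OZ1-20, a median of 7.41 and 12.29 on OZ1-10 (fitted range 6.44, adjusted p = 0.0235). psbN, of the plastid genome, had 5.53 on OZ1-1, a median of 8.06 and 12.97 on OZ1-16 (fitted range 4.63, adjusted p = 0.0286). Each of these was highest on an array with over 5% control signal. The same fit gave LBD16 an adjusted p of 0.145 with a fitted range of 4.77, which did not pass.

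The level of the hybridisation controls moved with many transcripts. Their mean log2 signal ran from 10.74 to 14.54, and a line on it, added after the data had been seen, called 2027 of 13647 probe sets (14.9%) in limma, 990 higher with more control signal (7.25%) and 1037 lower (7.6%). After quantile normalization the count was 989, of which 188 were higher and 801 lower, so that the split between directions rests on the scaling. Slopes are log2 signal per log2 unit of control signal. LBD16 rose by 1.15 (SE 0.225, adjusted p = 0.0023). It was highest on OZ1-10 (8.00) and OZ1-31 (7.82), the 2 arrays of highest control share. Without the 6 arrays over 5%, and with a filter at the 60th percentile, LBD16 was below the filter and was not tested, so that its slope without the high-control arrays is not known. In the other alternatives it passed. IAA29, an auxin response repressor, rose by 1.01 (adjusted p = 0.00414), with 2.45 on OZ1-9, a median of 5.71 and 8.26 on OZ1-15. Both genes lie near the filter, where LBD16 passed it on 13 arrays and IAA29 on 10. Of the 152 genes above the filter annotated as pseudogenes, 53 rose and 1 fell, and over all 7557 genes 597 rose.

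Genes that fell with the control level included abundant root transcripts. PYK10, a root beta-glucosidase of the endoplasmic reticulum bodies, had 8.89 on OZ1-10, a median of 10.87 and 12.69 on OZ1-1, a slope of -0.740 (SE 0.113, adjusted p = 0.000353). XTH19, a wall-remodelling enzyme, had 6.73 on OZ1-10, a median of 9.84 and 11.77 on OZ1-9, a slope of -0.729 (SE 0.131, adjusted p = 0.00125). Both were lowest on the array with the largest control share. Without the 6 arrays over 5%, XTH19 did not pass (slope -0.53, adjusted p = 0.16), while PYK10 passed in every alternative run. Of the 7 tubulin genes 4 fell and none rose, among them TUB5 with a slope of -0.595 (adjusted p = 0.00098). The count that fell was 1 after quantile normalization, 2 without OZ1-10 and 0 without the 6 arrays over 5%. TUB6, which the reference list for quantitative PCR holds, fell with a slope of -0.299 (adjusted p = 0.00708), and did not pass in limma after quantile normalization (adjusted p = 0.10) or without the 6 arrays (adjusted p = 0.14). RALFL34 also fell, with a slope of -0.53 (SE 0.168, adjusted p = 0.0352), but without the 6 arrays over 5% its slope was 0.010 (adjusted p = 0.99). Of the 69 plastid-encoded genes 24 rose and none fell, where 597 of the 7557 genes above the filter rose. The count of plastid-encoded genes that rose was 15 without OZ1-16, 51 without the 4 arrays and 5 without the 6 arrays over 5%. Whether these slopes come from RNA input, array handling or the roots was not tested.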

How the data were processed

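The deposited table holds MAS5 signal intensities for 39 arrays, per the submitters' processing notes. Scan days were read from the deposited instrument records, as day 1 and day 2. The 20 OZ1 columns were turned into log2 values, with no further scaling. Of 13513 probe sets with 1 gene, 13436 matched the gene reference; a gene was taken by its probe set of highest mean, which gave 13356 genes, 1557 with a symbol. SDs, running medians over neighbouring probe sets in mean rank and ratios were computed in Python 3.11.15 with numpy 2.4.6, pandas 2.3.3 and scipy 1.17.1. Scan day, position (natural spline, 3 df) and control level were tested with limma 3.58.1 in R 4.3.3 (eBayes with trend, Benjamini-Hochberg at 0.05) over 13647 probe sets; the programs were tested on simulated data. Correlations over arrays used 100000 permutations, two-sided. Signal tables carry no read depth: the number of arrays limits precision. Named genes were the 20 of highest mean, the 10 of highest and of lowest SD ratio in the top 10% of means, the highest mean and extreme ratios of each list, called genes of largest range, LBD16 and the reference genes; picks among genes with a symbol, further families, MT1C, the control level test and its genes were added after values were seen. Members and lists were chosen with earlier results of these data known. Alternatives were other scalings, filters, spread measures, model terms and left-out arrays. No sequence was used.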

Additional observations from a re-analysis of the deposited data

How the results depend on the processing

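Of the 100 probe sets of highest mean, 87 to 100 were shared under every alternative run and 95 to 99 with any single array left out. The median SD above the filter, 1.03, was 0.863 on log2(value + 16), 0.894 without OZ1-2, OZ1-3, OZ1-6 and OZ1-10, 0.760 without the 6 arrays over 5% control signal, 0.881 on scan day 2 alone, 1.30 with no filter, 0.846 with the filter at the 60th percentile and 0.787 as a median absolute deviation; single arrays left out gave 0.985 to 1.04. Of the 100 probe sets of highest SD ratio within the top 10% of means, 41 were shared without those 4 arrays and 58 without the 6. On scan day 2 alone 41 were shared, on scan day 1 alone 54 and by the median absolute deviation 50, with 74 to 97 when single arrays were left out. For scan day, limma called 7 probe sets without the 4 arrays, 81 with array weights and 0 without the 6 (1583 at an unadjusted p under 0.05), and 0 to 58 with single arrays left out, the 58 without OZ1-3. For listed position it called 2 after quantile normalization, 12 on log2(value + 16), 38 without the 4 arrays, 1212 with array weights, and 0 without the 6, when the control level was also fitted or with a linear trend (671, 218 and 152 at an unadjusted p under 0.05). Leaving out single arrays gave 5 to 24, and the count was 13 or lower without OZ1-1, OZ1-3, OZ1-4, OZ1-9, OZ1-10, OZ1-14, OZ1-15, OZ1-16, OZ1-19, OZ1-20, OZ1-31, OZ1-32 or OZ1-33. The control level called 989 after quantile normalization, 5014 with no filter and 129 without the 6 arrays, and 1518 to 2106 with single arrays left out. Position against median signal had r of -0.10 on scan day 2 alone. The slope of RALFL34 on the control level turned to 0.010 without the 6 arrays. Runs with arrays left out hold fewer samples, and their counts were lower in some and higher in others. What moved the counts was not tested. No paired analysis was possible because no groups that share array numbers were compared. Of 121 named genes, the SD ratio moved for 71 without the 4 arrays, 58 without the 6, 70 and 68 on scan days 2 and 1 alone, 76 by the median absolute deviation, 23 after the control level and 18 or fewer under each other alternative. Arrays differ in control signal and in 3′ to 5′ ratios, low signals have the widest spread, and 8730 probe sets have no gene name here.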
